A study of Mus musculus with 14 samples.

Results

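RNA of Foxp3 and 7 transcription factors known to work with it or upstream of it (Ikzf1, Ikzf2, Ikzf4, Runx1, Cbfb, Foxo1 and Foxo3) was followed across 14 libraries of sorted CD4+Foxp3eGFP+ lymph node cells. The 8 genes were chosen by symbol for their known roles, not by their values, from the 14449 genes of the deposited table. All 8 were in the table and passed the filter that left 12329 genes for testing. The mice were BALB/c at postnatal day 35, either wild type (7 libraries) or Il1rn-/- (7 libraries), which lack the secreted IL-1 receptor antagonist. Letters in the sample titles, which the labels leave unexplained, form a set a with 3 libraries per genotype and a set b with 4 per genotype. Each library came from 50000 cells that carried a green reporter of Foxp3, in both genotypes. The sort therefore fixed that every library held Foxp3-expressing cells, and the presence of Foxp3 RNA is not a finding. The labels do not say that libraries came from separate animals, so the p-values measure only the spread between libraries, which may be technical. Il1rn itself is not in the table analysed here, so it could not check the genotype labels.

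Foxp3 is the forkhead factor that defines regulatory T cells, the CD4+ T cells that hold immune responses in check, and in its absence mice and people develop severe autoimmunity. It acts in large protein complexes. Runx1 binds DNA together with Cbfb, its non-DNA-binding partner subunit, and both bind Foxp3 protein or the Foxp3 gene. The Ikaros-family zinc-finger proteins Helios (Ikzf2) and Eos (Ikzf4) are abundant in regulatory T cells, and Eos serves as a co-repressor with Foxp3, while Ikaros (Ikzf1) acts broadly in lymphocytes. The forkhead factors Foxo1 and Foxo3 are kept out of the nucleus when AKT phosphorylates them, and in the nucleus they favour expression of Foxp3.

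The 14 libraries held 952021 to 3756559 reads in the genes of the table and fell into 2 library groups that followed the letters except in 2 Il1rn-/- libraries. In 6 libraries, here called shallow, 59.6% to 65.8% of reads came from Rn45s, the precursor of ribosomal RNA, and in the other 8, here called deep, 20.3% to 39.95% did. The shallow ones were wild-type 1b, 2b, 3b and 4b and Il1rn-/- 1b and 2b. Deep were all 6 libraries of set a and Il1rn-/- 3b and 4b. Y-linked transcripts were found in wild-type 1a and 2a and in Il1rn-/- 3b and 4b, at 374 to 808 reads, and at 0 to 2 reads elsewhere. Cd4 was between 7.95 and 8.55 log2 CPM in every library, and 11 of 11 T cell genes summed to 3124 to 6178 CPM. The B cell markers (13 of 13 in the table) summed to 22.6 to 89.9 CPM in deep and 26.4 to 76.2 CPM in shallow libraries, and those of CD8 T and NK cells (8 of 9) to 50.5 to 77.4 and 46.5 to 95.7 CPM. The monocyte and macrophage markers (10 of 12) summed to 3.86 to 29.95 and 10.3 to 20.8 CPM, and the dendritic cell markers (5 of 10) to 11.1 to 20.8 and 26.9 to 51.6 CPM, without overlap. Of the 4 dendritic cell markers tested, Bst2 (-1.54, deep minus shallow) and Ccr9 (-1.21) had the highest mean log2 CPM, 3.46 and 2.94. Siglech (-1.35) and Xcr1 (0.50) had means of -1.73 and -0.70, and neither passed the threshold between library groups. Of the markers of other cell types, Ncr1, Adgre1, Itgax and Flt3 are not in the table analysed here, and Siglech had 0 reads in 7 libraries.

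Foxp3 was the most abundant of the 8 per unit of length. Levels in this paragraph are mean log2 CPM per kilobase of the longest coding reference transcript, over 14 libraries. Foxp3 stood at 6.64 ± 0.27 (SD, n = 14) and was above Ikzf1, the next gene, in all 14 libraries by a mean of 1.79. Ikzf1 (4.85 ± 0.36) and Ikzf2 (4.74 ± 0.36) had like means, with Ikzf1 the higher of the pair in 7 of 14 libraries, but their order changed with the 2 library groups. Ikzf1 was higher in all 6 shallow libraries, by 0.70 ± 0.21 (SD), and in 1 of 8 deep ones, where the mean difference was -0.34 ± 0.30. Ikzf4 followed at 3.94 ± 0.35 and was above Foxo1 (3.42 ± 0.20) in 14 of 14 libraries. Cbfb (2.95 ± 0.21) and Runx1 (2.84 ± 0.25), the 2 subunits of one factor, differed by 0.11 ± 0.22 (SD of the difference, n = 14), which is within their spread. Foxo3 was lowest on average at 1.28, with an SD of 1.43 that was the widest of the 8. Its mean was 2.75 in shallow libraries, just under that of Runx1 (2.83), and 0.18 in deep ones, far under that of Runx1 (2.85).

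**Figure D1:**
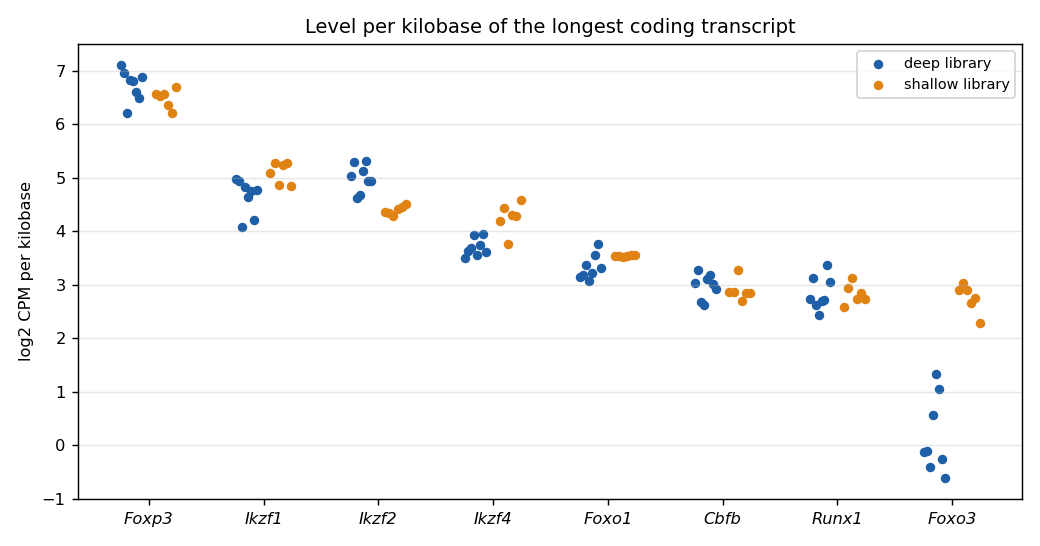
Level of each gene in each library, as log2 CPM per kilobase of its longest coding transcript (vertical axis), with deep libraries in blue and shallow ones in orange. Foxp3 leads in every library, and Foxo3 spans the widest range, from -0.62 to 3.03.

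Foxp3 RNA did not differ detectably between genotypes. Log2 CPM here is reads scaled to library size, adjusted by a factor per library (TMM), on a log2 scale. In set a Foxp3 was at 9.06, 8.90 and 8.16 for the wild-type libraries 1a, 2a and 3a, and 8.78, 8.75 and 8.54 for the Il1rn-/- libraries. In set b the wild-type libraries 1b, 2b, 3b and 4b stood at 8.52, 8.46, 8.52 and 8.31, and their Il1rn-/- counterparts at 8.15, 8.64, 8.44 and 8.84. The genotypes overlapped in both sets, and wild-type 3a and Il1rn-/- 1b were the lowest libraries. The Il1rn-/- minus wild-type difference was 0.03 ± 0.16 (SE, 7 against 7 libraries, letter as a term), with a 95% confidence interval of -0.31 to 0.37 and an adjusted p of 0.975. With library group in place of the letter it was -0.05 ± 0.15. In bulk libraries such as these, fewer cells with a transcript and less of it per cell cannot be told apart. In set a alone 2 wild-type libraries carried Y-linked transcripts and wild-type 3a did not, and Foxp3 lies on the X chromosome. Without the libraries that carried them, an alternative added after seeing the data, the set a difference of Foxp3 turned from -0.02 ± 0.25 to 0.53 ± 0.20 (adjusted p 0.574), which then rested on wild-type 3a as the only wild-type library of the set, assumed to vary like the other groups.

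The base sequence upstream of Foxp3 is shown because Runx1 with Cbfb and the Foxo factors are known to act at this gene. RefSeq gives 2 starts for Foxp3, and the sequence is the 250 bases before the first (GRCm38.p6, chrX:7579426-7579675, + strand), outside the coding exons, with the RUNX core letters GTGGTT and the forkhead core letters TAAACA in capitals, each searched on both strands.
Foxp3: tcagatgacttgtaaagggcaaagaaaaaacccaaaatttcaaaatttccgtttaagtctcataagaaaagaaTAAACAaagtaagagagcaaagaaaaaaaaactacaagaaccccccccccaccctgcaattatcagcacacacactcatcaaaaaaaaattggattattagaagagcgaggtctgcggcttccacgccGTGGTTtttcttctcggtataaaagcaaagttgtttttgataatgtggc
The RUNX letters begin 49 bases and the forkhead letters 177 bases before this start. The 250 bases before the second start (chrX:7580233-7580482) hold neither. Of 32817 mouse promoters of the same length, 10.8% held the RUNX letters and 12.0% the forkhead letters. A match describes the letters only, and no binding was measured here. The reads of Foxp3 carry a limit of their own: 26.2% of the 32-base words of its transcripts also occur in other genes, 16.1% in Flicr, a long non-coding RNA on the same strand of the Foxp3 locus, and 10.1% in Ccdc22 on the opposite strand. How reads shared between genes were counted is not given in the sources used here. Flicr itself did not pass the test either, with a genotype difference of -0.16 ± 0.17 (adjusted p 0.860).

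None of the 7 partners differed between genotypes past the threshold. Over all libraries 0 of 8 genes were called at an adjusted p of 0.05, against 0% of the 12329 tested genes. At an unadjusted p under 0.05 the counts were 0 of 8 genes and 679 of all tested genes (5.51%). The 8 differences had a median of 0.01 (4 positive, 4 negative), beside 0.04 over all tested genes, and adjusted p-values of 0.797 to 0.999. Of the RUNX pair, Runx1 differed by -0.0015 ± 0.15 (-0.32 to 0.32, 95% confidence interval) and Cbfb by -0.02 ± 0.16 (-0.36 to 0.32). Of the Ikaros family, Ikzf1 differed by -0.16 ± 0.18, Ikzf2 by 0.23 ± 0.15 and Ikzf4 by 0.02 ± 0.16. Foxo1 differed by 0.03 ± 0.12 (-0.22 to 0.28), the narrowest interval of the 8, and Foxo3 by -0.54 ± 0.53 (-1.65 to 0.58), the widest. The interval of Foxo3 thus leaves room for changes that those of the other 7 do not. With library group in place of the letter, Ikzf1 was at -0.04, Ikzf2 at 0.06, Ikzf4 at 0.20 and Foxo3 at 0.21 ± 0.29, the opposite sign.

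**Figure D2:**
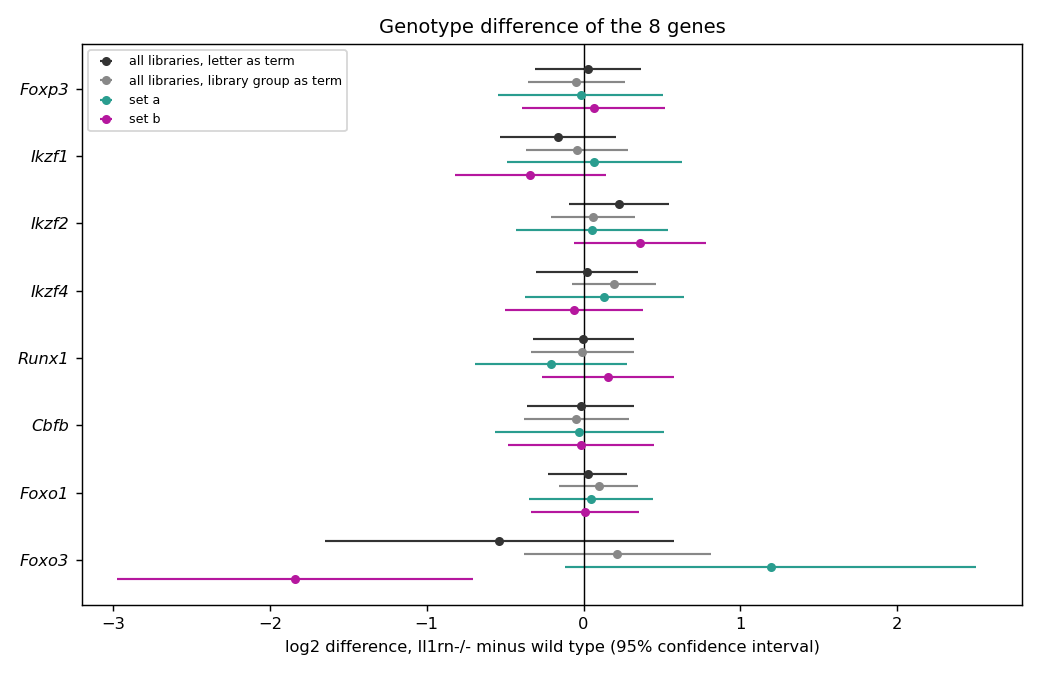
Il1rn-/- minus wild-type difference of each gene (log2, points) with its 95% confidence interval (lines), from all 14 libraries with the letter or the library group as a term, and within set a and set b. The intervals of 7 genes cross 0 in all 4 comparisons, and that of Foxo3 in set b does not, although its adjusted p is 0.254.

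Foxo3 differed in opposite directions in the 2 sets. In set a it was at 2.65, 2.67 and 2.37 log2 CPM in wild type and at 3.35, 4.11 and 3.82 in Il1rn-/-. All 3 Il1rn-/- libraries of set a were above all 3 wild-type ones, which 4.36% of the tested genes also showed. The set a difference was 1.19 ± 0.63 (unadjusted p 0.0720, adjusted p 1). In set b it was at 5.68, 5.80, 5.68 and 5.44 in wild type and at 5.53, 5.05, 2.52 and 2.16 in Il1rn-/-. Il1rn-/- 1b lay within the wild-type range, 2b lay below it, and the deep libraries 3b and 4b lay near the deep wild-type libraries of set a (2.37 to 2.67). The set b difference was -1.84 ± 0.54 (unadjusted p 0.00314, adjusted p 0.254). Without Il1rn-/- 2b it was -2.25 ± 0.54 and passed the threshold (adjusted p 0.0447), and without 2b 230 genes in all passed in set b. With library group as a further term it was -0.36 ± 0.29 (adjusted p 0.985). The reads behind these values were few, 13 to 80 per library, and the lowest 2 libraries were Il1rn-/- 4b with 13 and 3b with 18.

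The difference between the sets was itself tested for all 8 genes. For Foxo3 it was -3.03 ± 0.83 (set b minus set a), with an unadjusted p of 0.00171 and an adjusted p of 0.610. For the other 7 genes it lay between -0.41 (Ikzf1) and 0.37 (Runx1), with adjusted p-values of 0.767 to 0.997. Over all tested genes 0 passed (0%) in this test, and 968 (7.85%) had an unadjusted p under 0.05. Fits with library group as a further term were added for this test and for set a after seeing the data. With that term the Foxo3 value was -1.56 ± 0.39 (unadjusted p 0.000978, adjusted p 1.000). In fits with that term the set a difference was 1.19 ± 0.27 (unadjusted p 0.000347, adjusted p 0.244). All set a libraries were deep, so the term left this difference unchanged and only lowered its SE, from 0.63. Among deep libraries, the 4 that carried Y-linked transcripts had Foxo3 at 2.50 ± 0.24 (SD, n = 4) and the 4 without them at 3.41 ± 0.76, of which wild-type 3a was the lowest at 2.37. With library group and Y-linked transcripts as terms, also added after seeing the data, the genotype difference of Foxo3 over all libraries was 0.08 ± 0.25.

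**Figure D3:**
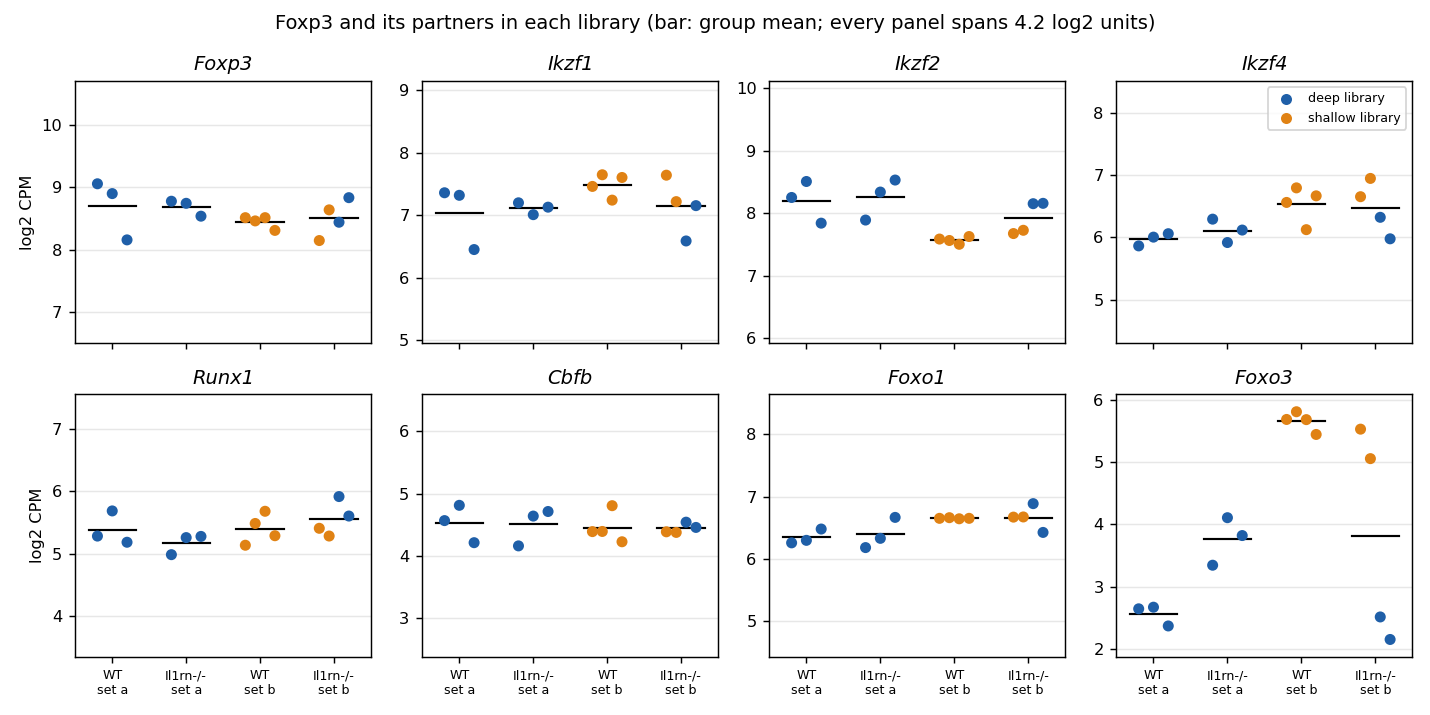
Level of the 8 genes (log2 CPM, vertical axis) in each library by genotype and set, with deep libraries in blue, shallow ones in orange and the group mean as a bar. Colour separates Foxo3 and Ikzf2 into ranges that do not overlap. Within a colour the genotypes of Foxp3, Ikzf1, Ikzf4, Runx1, Cbfb and Foxo3 overlap. Those of Ikzf2 and Foxo1 overlap in deep libraries but not in shallow ones.

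Helios RNA was the other value that separated the genotypes in a set. Ikzf2 in set b was at 7.59, 7.56, 7.50 and 7.63 log2 CPM in wild type and at 7.67, 7.73, 8.15 and 8.16 in Il1rn-/-, so all 4 Il1rn-/- libraries were above all 4 wild-type ones, as for 2.36% of tested genes. The difference was 0.36 ± 0.20 (adjusted p 0.406), and with library group as a further term it was 0.13 ± 0.20. In set a Ikzf2 was at 8.25, 8.51 and 7.84 in wild type and at 7.89, 8.34 and 8.53 in Il1rn-/-, and the genotypes overlapped, with a difference of 0.05 ± 0.23. Eos RNA did not separate them in either set. Ikzf4 stood at 5.86, 6.01 and 6.06 against 6.29, 5.92 and 6.12 in set a, and at 6.56, 6.79, 6.12 and 6.67 against 6.65, 6.95, 6.32 and 5.98 in set b, wild type first. Within each set 0 of 8 genes passed, as did 0% of tested genes. Ikaros RNA in set a was at 7.36, 7.32 and 6.45 in wild type, where 3a stood apart, and at 7.20, 7.01 and 7.13 in Il1rn-/-, a difference of 0.07 ± 0.27. Ikzf1 in set b was at 7.46, 7.65, 7.24 and 7.60 in wild type and 7.64, 7.22, 6.59 and 7.15 in Il1rn-/-, a difference of -0.34 ± 0.23 (adjusted p 0.494).

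The RUNX pair was nearly level across sets. Runx1 in set a stood at 5.28, 5.68 and 5.18 log2 CPM in wild type and at 4.98, 5.26 and 5.28 in Il1rn-/-. In set b it stood at 5.13, 5.48, 5.68 and 5.29 in wild type and at 5.41, 5.28, 5.91 and 5.60 in Il1rn-/-. The genotypes overlapped in both sets, with differences of -0.21 ± 0.23 and 0.16 ± 0.20, and Il1rn-/- 3b was the highest library. Among deep libraries Runx1 was at 5.62 ± 0.26 (SD, n = 4) in those with Y-linked transcripts and at 5.17 ± 0.13 (n = 4) in those without, which was not tested. Cbfb ranged from 4.21 to 4.81 in wild type and from 4.16 to 4.71 in Il1rn-/- over both sets, at 24 to 120 reads per library, with genotype differences of -0.03 ± 0.26 (set a) and -0.01 ± 0.22 (set b). Of the Foxo pair, Foxo1 in set a was at 6.26, 6.30 and 6.48 in wild type and at 6.18, 6.33 and 6.67 in Il1rn-/-, and its differences were 0.05 ± 0.19 in set a and 0.01 ± 0.16 in set b.

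Of the 8 genes, 3 were lower and 1 was higher in deep than in shallow libraries. Deep against shallow libraries, 4 of 8 genes passed the threshold with genotype as a term, where 36.1% of all tested genes did (20% higher and 16.1% lower in deep libraries). The groups were defined by Rn45s and were known from the same table, so these values describe how the 8 genes moved with them. Foxo3 was 6.22-fold lower in deep libraries (log2 difference -2.64 ± 0.29, adjusted p 6.04e-07), and only 6.94% of tested genes moved further. Ikzf4 was 1.53-fold lower (-0.61 ± 0.13, adjusted p 0.00104) and Ikzf1 1.35-fold lower (-0.43 ± 0.16, adjusted p 0.0371). Ikzf2 was 1.49-fold higher (0.58 ± 0.13, adjusted p 0.00173). In wild type the letter and the library group are the same split. With the letter as a further term Foxo3 kept its call, while Ikzf1 (-0.60, adjusted p 0.108), Ikzf2 (0.48, adjusted p 0.124) and Ikzf4 (-0.60, adjusted p 0.0571) had differences of similar size that did not pass. Foxp3 (0.26 ± 0.15), Foxo1 (-0.25 ± 0.12), Runx1 (0.02 ± 0.16) and Cbfb (0.10 ± 0.16) did not pass. Every deep library was above every shallow one for Ikzf2 (8.35% of tested genes) and below every shallow one for Foxo3 (6.56%).

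With each library left out in turn, the calls of Foxo3, Ikzf2 and Ikzf4 stood and only that of Ikzf1 was lost, without wild-type 3a (-0.29, adjusted p 0.119), wild-type 1b, 2b or 4b, or Il1rn-/- 1b. Of the genes not called, Foxp3 passed without wild-type 3a at 0.40 (adjusted p 0.0272) and Foxo1 without Il1rn-/- 3b at -0.29 (adjusted p 0.0337). With Rn45s left out of the library size, and without the TMM factors, the median of all tested genes moved from 0.12 to -0.07. The split of calls moved from 2464 higher and 1983 lower to 1649 and 2665. The 4 calls stood, Foxo1 passed at -0.44, and Runx1 (-0.17) and Cbfb (-0.10) changed sign.

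**Figure D4:**
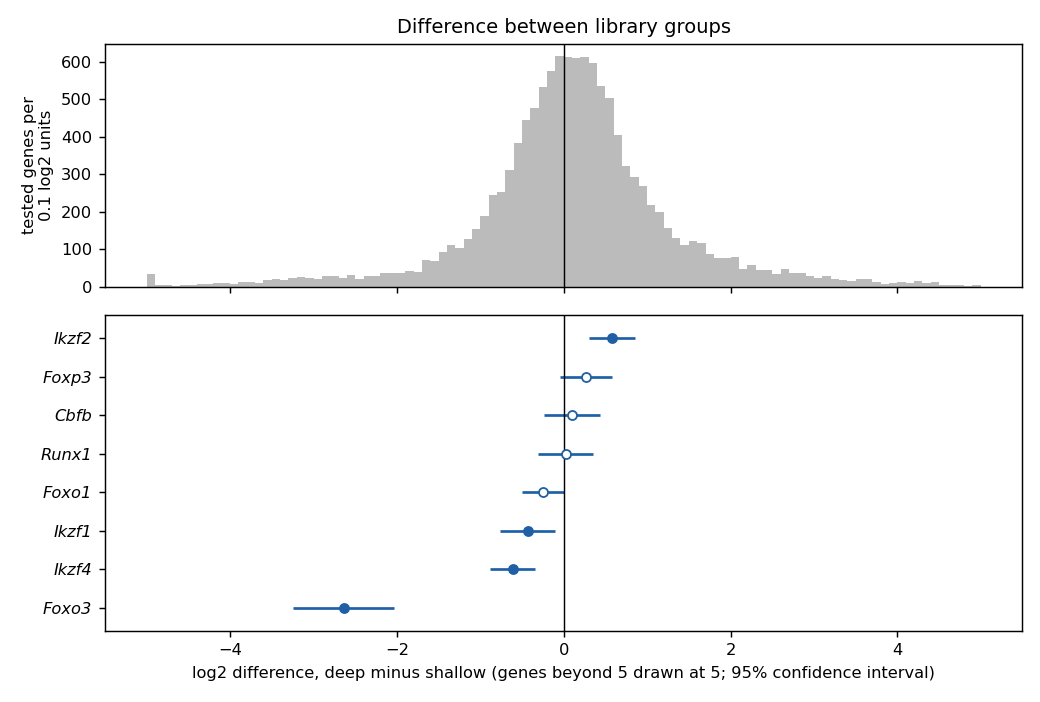
Top, log2 difference of all 12329 tested genes between deep and shallow libraries, as a histogram. Bottom, the same difference for the 8 genes with 95% confidence intervals, filled where the adjusted p is under 0.05: Foxo3 lies at -2.64, far from its relative Foxo1 at -0.25, and Ikzf2 lies opposite to Ikzf1 and Ikzf4.

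Ratios within a library do not depend on its scaling, and they moved in the same way. The log2 level of Foxo3 minus Foxo1 was -3.49 ± 0.78 (SD, n = 8) in deep and -1.13 ± 0.27 (n = 6) in shallow libraries, and the ranges did not overlap (-4.37 to -2.22 and -1.62 to -0.86). Ikzf2 minus Ikzf4 was 2.14 ± 0.35 in deep and 0.99 ± 0.22 in shallow libraries. Ikzf2 minus Ikzf1 was 1.19 ± 0.30 and 0.15 ± 0.21. Runx1 minus Cbfb, the 2 subunits of one DNA-binding factor, was 0.88 ± 0.27 and 0.95 ± 0.13, a difference within the spread. None of the 4 ratios differed between genotypes in exact two-sided permutation tests within letters, with adjusted p-values of 0.537 to 0.874 over 4 tests.

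**Figure D5:**
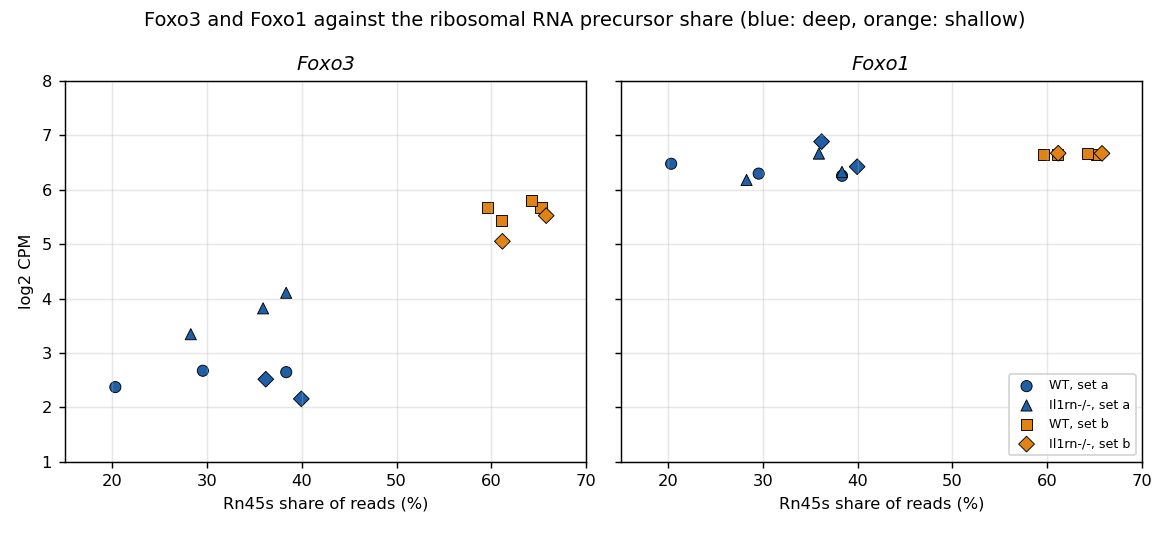
Level of Foxo3 (left) and Foxo1 (right) in log2 CPM against the share of reads taken by Rn45s, in percent, with genotype and set as symbols, deep libraries in blue and shallow ones in orange. Foxo3 is at 2.16 to 4.11 in deep and 5.05 to 5.80 in shallow libraries, while Foxo1 stays between 6.18 and 6.89 throughout.

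Foxo1 and Foxo3 are related factors with shared target genes, and their start regions are shown because their RNA levels parted so widely across the library groups. Each is the 250 bases before the RefSeq start on the strand of the gene (GRCm38.p6), Foxo1 at chr3:52268087-52268336 (+) and Foxo3 at chr10:42276696-42276945 (-). Capitals mark the Ikaros core letters GGGAA, or TTCCC where they lie on the other strand.
Foxo1: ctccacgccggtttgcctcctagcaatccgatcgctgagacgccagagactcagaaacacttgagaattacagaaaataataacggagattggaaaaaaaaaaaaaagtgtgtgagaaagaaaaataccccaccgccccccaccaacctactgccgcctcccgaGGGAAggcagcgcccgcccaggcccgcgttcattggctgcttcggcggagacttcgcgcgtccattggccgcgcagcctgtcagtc
Foxo3: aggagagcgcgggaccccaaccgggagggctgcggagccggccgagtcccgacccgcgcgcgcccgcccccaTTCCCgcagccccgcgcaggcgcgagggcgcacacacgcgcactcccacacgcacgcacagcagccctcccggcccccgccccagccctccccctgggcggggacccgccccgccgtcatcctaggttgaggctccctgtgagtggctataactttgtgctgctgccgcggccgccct
The Foxo3 sequence was 76.4% G and C, above 96.96% of all mouse promoters in the set, and that of Foxo1 was 56.0%, near the median of 52.4%. The Ikaros letters were in both, as in 56.2% of all promoters, and neither held the RUNX or forkhead letters searched. RefSeq starts were matched for 6 of the 8 genes (9 starts), with no entry matched for Ikzf2 and Ikzf4. Reference transcripts were almost free of sequence shared with other genes for Foxo3 (0.0925% of 32-base words). They were less so for Foxo1 (7.91%, of which 7.10% with the opposite-strand gene Gm20402).

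The log2 CPM values of Foxo1 were nearly level across the shallow libraries. The 4 wild-type libraries of set b had 6.65, 6.66, 6.64 and 6.65 log2 CPM, and both Il1rn-/- 1b and 2b had 6.67, from 86 to 197 reads. Foxo1 and Ikzf2 were thus higher in both Il1rn-/- than in all 4 wild-type shallow libraries, as were 6.29% of tested genes. The SD of these 6 values was 0.0118, and counting alone would give about 0.120. Of 4001 genes with at least 20 reads in every shallow library, Foxo1 had the lowest ratio of observed to counting spread, at 0.0977. At these read numbers the RNA level itself is not resolved this finely, so the values do not show how even it was. In deep libraries Foxo1 ranged from 6.18 to 6.89 with an SD of 0.23. The SD of Foxo3 in the shallow libraries was 0.27, at 1.51 times the counting spread, a ratio that 54.0% of genes did not exceed.

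Across libraries, Foxp3 rose and fell with Ikzf1 in the deep group. Over the 8 deep libraries Pearson's r between them was 0.92 (exact permutation p 0.00119, adjusted p 0.0167 over 14 relations) and Spearman's rho was 0.93 (exact p 0.00223). Without the 2 libraries farthest from the median of Foxp3, r was 0.76. Over the 6 shallow libraries r was -0.76 (exact p 0.0917, adjusted p 0.642) and rho -0.89 (exact p 0.0333), and the difference between the 2 groups in r was not tested. The remaining 12 relations of Foxp3 with a partner in a library group had adjusted p-values of 0.802 to 0.983. The 5 genes most like Foxp3 over all 14 libraries, after centring on each library and library group, were Dnmt1, the maintenance DNA methyltransferase (r 0.91), Pygb, a glycogen phosphorylase (0.90), Itgal, a chain of the integrin LFA-1 (0.87), Pdcd6ip (0.86) and Iqgap1, a cytoskeletal scaffold (0.86). They were the highest of 5223 genes compared, and Ikzf1, at 0.58, ranked 430. Within deep libraries r was 0.97 for Iqgap1, 0.97 for Dnmt1 and 0.93 for Pygb, each above that of Ikzf1. The share of all genes with so high an r in deep libraries was not computed. For Iqgap1 r was 0.03 in shallow libraries.

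The other genes of the network showed no call by genotype in any list. Of 31 further members of the Foxp3 complex and its co-regulators 0 passed, with a median difference of 0.08, beside 0.04 over all tested genes. The 2 with an unadjusted p under 0.05 were the histone deacetylases Hdac9 (1.99 ± 0.72, at 0 to 12 reads) and Hdac3 (0.36 ± 0.16), which with library group as a term were at 1.00 (unadjusted p 0.134) and 0.23 (unadjusted p 0.135). Satb1, a chromatin organiser whose transcript Foxp3 is known to repress, was at 6.48 ± 0.22 (SD, n = 7) in wild type and 6.19 ± 0.23 in Il1rn-/- (unadjusted p 0.0513, adjusted p 0.787). Its difference was -0.29, or -0.30 with library group as a term (unadjusted p 0.0401), where 0 genes passed. By set it was -0.30 in set a and -0.28 in set b. Of 26 regulators of the Foxp3 locus, 23 genes activated with Foxp3 and 12 tested genes repressed with it, 0 passed in each, with medians of 0.01, 0.04 and -0.08. Nrp1, a surface marker of thymus-derived regulatory T cells, differed by 0.25 ± 0.15 and Ifng by 1.43 ± 0.97, or by 0.14 and 0.45 with library group as a term. Ifng had only 0 to 44 reads per library, and its difference was -0.26 in set a and 2.71 in set b. Of 19 FOXO targets and 23 genes of PI3K and AKT control of FOXO, 0 passed, with medians of -0.06 and -0.02. Bcl2l11, the pro-apoptotic FOXO target Bim, was at 5.06 ± 0.42 in wild type and 4.60 ± 0.47 in Il1rn-/- (unadjusted p 0.0234, adjusted p 0.787), and its difference was -0.27 with library group as a term.

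With library group, 13 of 23 genes activated with Foxp3 passed (56.5%, against 36.1% of all tested genes), 7 higher and 6 lower in deep libraries, so the list did not move one way. Il2ra, the high-affinity IL-2 receptor chain, was lower by 0.76 on the log2 scale and its partner chain Il2rb by 1.04, while Ctla4, an inhibitory receptor, was higher by 1.11 and Nt5e, an ectoenzyme, by 1.31. Of 19 FOXO targets 8 passed (42.1%, near the 36.1% of all tested genes), 3 higher and 5 lower. Among them the cell cycle inhibitor Cdkn1b was higher by 1.12 and Bcl2l11 lower by 0.70. Among the PI3K and AKT genes 9 of 23 passed (39.1%, against 36.1% of all tested genes), 4 higher and 5 lower in deep libraries. The kinase gene Sgk1 (1.64) and the PI3K subunit gene Pik3r5 (1.15) were among the higher. The AKT kinase gene Akt2 (-1.53) and Inpp5d (-0.45) were among the lower. Of the 14-3-3 genes, whose proteins hold phosphorylated Foxo in the cytoplasm, Ywhaz (-2.75), Ywhah (-2.05) and Ywhaq (-1.79) were lower, and Ywhag (-0.62, adjusted p 0.0635), Ywhae (-0.09) and Ywhab (0.09) did not pass. In the Ikaros family Ikzf5 fell by 0.86, and Ikzf3 (Aiolos) differed by -0.15, which did not pass. T cell genes also moved with library group, with Cd3e lower by 2.46 and Cd5 higher by 0.47 in deep libraries. Among markers of other cells Cd8a was lower by 1.16. The part of other cells, of read depth and of RNA content in the differences between library groups was not tested.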

How the data were processed

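Per the labels' protocols, sorted cells went through the Qiagen RNeasy Micro kit and Smart-Seq2 (a low-input library method), and Cuffquant 2.2.1 did the quantification. BWA, TopHat2 2.0.10, Cufflinks 2.2.1 and Cuffnorm are named in the submitters' processing notes. The submitters' genome build, annotation, strand setting and treatment of shared reads: not given in the sources used here. The authors deposited log2 CPM, where 0 reads appear as -3.58. Whole reads were recovered from the even steps of the values (100% whole within 0.001) and used for depth, shares, read numbers and limma voom. The scaling factors implied by the deposited values matched TMM factors (trimmed mean of M-values) computed from these reads. They ran from 0.69 in wild-type 1b to 1.615 in wild-type 3a. Intervals from reads would cover counting error only, since reads carry no molecular identifiers.

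Genes with CPM over 1 in at least 3 libraries were fitted with trended limma 3.58.1 (R 4.3.3). Moderated p-values were two-sided and adjusted by Benjamini-Hochberg over 12329 genes, with a threshold of 0.05. Terms were genotype and letter, genotype and library group (shallow where Rn45s held over 50% of reads), or 4 groups of genotype and letter. The genotype fit was also run on simulated reads with known genotype changes. These had no letter or library group effect, so they cannot show how the fit behaves where genotype and library group are mixed. Reads of Y-linked genes were called from 20. Named were all 8 genes, the 5 genes most like Foxp3 by Pearson's r (among those with mean log2 CPM at least 4), and up to 3 genes per list by smallest genotype p. Genes named for library group were chosen after their values were seen. The members, lists and library groups were chosen with earlier results of these data known. RefSeq promoters (GRCm38.p6) and GENCODE transcripts (GRCm38) gave sequences and lengths, which may differ from the build the authors used. Python 3.11.15, numpy and matplotlib were used for the rest.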

Additional observations from a re-analysis of the deposited data

Results flagged for a closer look

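Ikzf1 in wild type had 1 library far from the other 6. Wild-type 3a stood at 6.45 log2 CPM, and its distance to the nearest library was 66.1% of the range of the 7. It was the only such library in 32 groups of values examined, and chance alone marks about 1 in 20. Wild-type 3a was also the lowest wild-type library for Foxp3, at 8.16.

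For Foxo3, every Il1rn-/- library of set a was above the wild-type mean of its set and every one of set b below it. The difference between the sets was -3.03 on the log2 scale (adjusted p 0.610). In a fit with library group as a further term, added after seeing the data, it was -1.56 (adjusted p 1.000). In set b the wild-type libraries were shallow throughout and 2 of 4 Il1rn-/- ones deep, so genotype and library group are partly mixed in set b.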

How the results depend on the processing

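Of 1104 alternative values for the 8 genes, 1080 kept their direction and side of the threshold or changed sign within 1 SE of 0 (86). Of the rest, 12 lost the threshold, 4 gained it and 8 changed sign. Some alternatives could not move an estimate, so the 1080 overstate how far the values were tried. Scaling by TMM repeated the deposited scaling. Leaving out a set b library cannot change the set a difference, and the reverse holds for set b. Of the 24 genotype results of single genes over all libraries, in set a and in set b, 1 passed under any alternative, Foxo3 in set b without Il1rn-/- 2b. The genotype difference of Foxo3 over all libraries turned to 0.14 with library weights, 0.21 with library group, 0.46 with library group and letter and 0.62 in deep libraries alone. With library group and Y-linked transcripts, added after seeing the data, it turned to 0.0756. That of Ikzf4 in set b turned to 0.26 with library group, that of Foxp3 in set a to 0.53 without libraries with Y-linked transcripts, and the library group difference of Runx1 to -0.17 with Rn45s left out. The cause was not tested.

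Counts of called genes moved as follows. By genotype, 2 genes passed in deep libraries alone and 13 in shallow ones alone. In set a 1 passed with that set alone and 11 without libraries with Y-linked transcripts. In set b 6 passed without an intensity trend and 4 with library group. The difference between sets gave 2 without a trend. Between library groups 2059 passed with the letter as a further term and 1263 in set b alone, where Ikzf1, Ikzf2 and Ikzf4 had differences of -0.56, 0.45 and -0.65 that did not pass and Foxo3 kept its call. Leaving out 1 library gave 0 to 1 in set a (1 without wild-type 3a), 0 to 230 in set b (230 without Il1rn-/- 2b, 7 without 1b, 3 without wild-type 1b), 0 over all libraries and for the difference between sets, and 3857 to 4705 between library groups. A replicate block by number called 0 genes over all libraries and within either set, and changed no call. Libraries with the same number did not pair, with correlations of their deviations of -0.15 to 0.00052 over 7 pairs and none best matched to its own number. The planned edgeR test on recovered reads was not run. Read depth limits Foxo3 (13 to 80 reads) and Cbfb (24 to 120 reads) most among the 8.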
